A study of Homo sapiens with 9 samples.

Results

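The DNA replication and G1/S genes described here are a list of 41 gene symbols looked up in the first column of the deposited count table, which has 30000 rows. All 41 were found, and all 41 were among the 18437 rows left after a filter on low counts. The recipient cells were THP-1, a line grown from a human monocytic leukaemia, and bulk RNA-seq gave 9 libraries in 3 groups of 3. The PKM2-KD group had received ectosomes from Huh7 hepatoma cells, labelled as carrying a PKM2 knockdown. The scramble group had received Huh7 ectosomes labelled with a scramble shRNA, and the control group carried the label Ctrl only. Ectosomes are vesicles shed from the plasma membrane, and PKM2 is an isoform of the glycolytic enzyme pyruvate kinase. All groups are THP-1 cells, and the labels name no treatment shared by all of them. The labels give no dose, preparation or time of exposure. They also do not say that replicates were separate cultures, so each p-value measures spread among the libraries alone, and that spread may be technical.

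Before a cell copies its DNA, origins of replication are licensed: the origin recognition complex, CDC6 and CDT1 load the MCM2-7 helicase onto DNA. At the start of S phase, kinases activate that helicase with CDC45 and GINS, and primase, polymerases, the PCNA sliding clamp and its loader then build the new strands. Many of these genes are transcribed under E2F factors, which cyclin D and cyclin E kinases release from the RB protein and which p21, the product of CDKN1A, holds back through those kinases.

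The classical E2F binding motif was read in the members' promoters, since it is the sequence feature textbook accounts attach to this gene group. The letters searched were TTT, then 2 bases each C or G, then CGC, on either strand, and overlapping matches were counted. RefSeq windows of 300 bases (250 before to 50 after the annotated start, GRCh38.p14) were at hand for 35 of the 41 members. A match stood in a window of 20 of these 35 genes, or 57.1%, against 690 of 10741 tested protein-coding genes with a window, or 6.42%. Counted by window, 21 of 45 member windows, or 46.7%, held one, against 735 of 15698 windows of tested protein-coding genes, or 4.68%. Over all RefSeq windows of this length, genes of any type included, it was 1164 of 35116, or 3.31%. The windows had a median C plus G content of 67.7% for the members and 64.3% for the tested protein-coding genes. MCM4, MCM5, GINS4, CCNE2, CCND1 and CDK2 were not matched to a window. By role, among genes with a window, the motif stood in 6 of 8 licensing genes and 3 of 5 helicase activation genes. It stood in 4 of 6 polymerase and primase genes and 3 of 7 clamp, clamp loader and lagging-strand genes. The rest were 1 of 4 genes of deoxynucleotide supply, 2 of 4 G1/S regulators and UHRF1. Printed here are the 100 bases before the start of 5 members with a match and, for contrast, of RRM1, which has none. Capitals mark the motif, and all are written 5′ to 3′ on the gene's own strand.
MCM6 (chr2:135876444-135876543, minus strand, at positions -90 and -86, overlapping): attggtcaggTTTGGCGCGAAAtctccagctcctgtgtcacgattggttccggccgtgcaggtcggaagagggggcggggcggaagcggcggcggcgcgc
POLE (chr12:132687343-132687442, minus strand, at position -18): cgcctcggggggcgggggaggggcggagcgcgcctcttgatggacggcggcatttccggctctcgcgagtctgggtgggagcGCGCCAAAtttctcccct
PCNA (chr20:5126623-5126722, minus strand, at position -59): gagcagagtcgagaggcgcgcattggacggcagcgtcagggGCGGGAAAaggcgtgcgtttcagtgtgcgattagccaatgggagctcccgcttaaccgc
E2F1 (chr20:33686386-33686485, minus strand, at positions -33 and -20): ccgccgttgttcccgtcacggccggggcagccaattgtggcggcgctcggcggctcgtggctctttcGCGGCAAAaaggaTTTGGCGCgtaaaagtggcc
E2F2 (chr1:23531234-23531333, minus strand, at position -42): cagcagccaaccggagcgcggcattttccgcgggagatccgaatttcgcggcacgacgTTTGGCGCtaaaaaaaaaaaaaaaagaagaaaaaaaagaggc
RRM1 (chr11:4094585-4094684, plus strand): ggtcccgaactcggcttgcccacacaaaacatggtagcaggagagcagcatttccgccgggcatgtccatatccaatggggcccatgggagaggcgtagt
Positions give the first base of the motif, counted back from -1 at the base before the start. In MCM6 a copy on each strand shares bases with the other, and in E2F1 a reverse copy is followed by a forward one. The MCM6 window holds 4 matches, the other pair at -152 and -148 lying outside the printed bases. A match describes the letters only, and factor binding was not measured.

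Library totals ran from 17744587 counts in control replicate 3 to 23864381 counts in scramble replicate 1. Control replicate 3 differed most from its group, with a chi-square per degree of freedom of 43.59 and 46.44 against the other controls, where the other pairs within a group gave 2.527 to 7.01. For the members its log2 ratio to the mean of the other controls had a median of 0.16 and ran from -1.70 for CDKN1A to 0.58 for RFC3. PKM was counted in the recipient cells and so says nothing of the knockdown in the cells that shed the ectosomes. It stood at 2313 ± 137 CPM with PKM2-KD ectosomes, 3500 ± 108 CPM with scramble ectosomes and 650.3 ± 195 CPM in control cells (SD, n = 3 each). CPM here is a count relative to the TMM-scaled total of its library, and each ± after a CPM is an SD over 3 libraries. All 14 monocytic marker genes were measured, with summed levels of 2113 to 2264, 1379 to 1429 and 2665 to 4099 CPM in the PKM2-KD, scramble and control libraries, and 1 of them was at 0 in control replicate 3. Single markers went both ways at an adjusted p under 0.05. Between PKM2-KD and scramble ectosomes, 9 were higher and 0 lower with PKM2-KD, against 31.4% and 30.3% of all rows tested. With PKM2-KD ectosomes, 5 were higher and 7 lower than in control cells, against 27.0% and 26.7% of rows. With scramble ectosomes, 3 were higher and 9 lower than in control cells, against 34.6% and 33.2% of rows. CSF1R, a monocyte receptor, averaged 351, 84.96 and 35.5 CPM with PKM2-KD ectosomes, scramble ectosomes and in control cells, and CTSG, a granule protease, 38.9, 30.01 and 731 CPM. Of 19 hepatocyte genes, 10 were in the table, and 4 passed the filter. Their summed levels were 40.83 to 47.34 CPM with PKM2-KD ectosomes, mostly SERPINA1 at 37.4 ± 3.61 CPM, 5.847 to 6.845 CPM with scramble ectosomes and 3.312 to 7.921 CPM in control cells. Albumin, the defining hepatocyte transcript, had 10, 7 and 10 raw counts with PKM2-KD ectosomes, 2, 2 and 3 with scramble ectosomes and 2, 4 and 1 in control cells. Of the 10 genes in the table, 3 to 4 were at 0 in each PKM2-KD library, 0 to 1 in each scramble library and 3 to 4 in each control library. What part these markers had in the results was not tested.

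The replication genes were lowest with scramble ectosomes, highest in control cells and in between with PKM2-KD ectosomes. Summed over the 39 members other than CDKN1A and CCND1, a pair set aside after their values were seen, the level was 3144, 3231 and 3581 CPM with PKM2-KD ectosomes, 1476, 1498 and 1499 CPM with scramble ectosomes and 5162, 4809 and 5799 CPM in control cells. No library of a group overlapped another group in this sum. Of the 41 members, 35 had their group means in that order, against 23.1% of all rows tested. In bulk RNA, fewer cells in S phase and less of these transcripts per cell cannot be told apart.

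PKM2-KD ectosomes against scramble ectosomes tests how the effects of the 2 ectosomes differ, as both share the control. At an adjusted p under 0.05, 36 members were higher with PKM2-KD ectosomes and 1, CDKN1A, was lower. Over all rows tested, 31.4% were higher and 30.3% lower. At least 2-fold, 20 members were higher and 1 lower, where 18.0% and 10.8% of all rows were. The median log2 fold change was 0.97 for the members and 0.03 for all rows. PKM2-KD libraries lay above every scramble library for 36 members and below for 1, against 37.4% and 37.1% of rows. ORC6, CDC6, GINS3 and CCND1 did not pass the threshold.

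Scramble ectosomes against control gave 39 members lower and 2 higher, CDKN1A and CCND1, where 33.2% of all rows were lower and 34.6% higher. At least 2-fold, 33 were lower and 2 higher, against 18.5% and 18.1% of rows. Scramble libraries lay below every control library for 39 members and above for 2, against 34.6% and 36.7% of rows. The median log2 fold change was -1.82 for the members and -0.01 for all rows. PKM2-KD ectosomes against control gave 35 members lower and the same 2 higher, where 26.7% of rows were lower and 27.0% higher. At least 2-fold, 1 member, CDT1, was lower and 2 were higher, against 7.22% and 14.5% of rows. PKM2-KD libraries lay below every control library for 36 members and above for 2, against 29.8% and 30.7% of rows. The median was -0.64, against -0.01 for all rows. GINS4, POLA2, RRM2 and CDK2 did not pass. These 2 comparisons share the control libraries. Without control replicate 3, the higher and lower counts were 37 and 1 for PKM2-KD against scramble ectosomes, 2 and 36 for PKM2-KD ectosomes against control, and 2 and 39 for scramble ectosomes against control. Scaling by library totals alone moved the median log2 fold change of all rows to 0.20 for PKM2-KD against scramble ectosomes, -0.04 for PKM2-KD ectosomes against control and -0.21 for scramble ectosomes against control. The share of calls that were higher then stood at 61.9% in place of 50.9% for PKM2-KD against scramble ectosomes and 40.2% in place of 51% for scramble ectosomes against control. The members' medians under that scaling were 1.14, -0.67 and -2.02 in the same 3 comparisons.

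**Figure D1:**
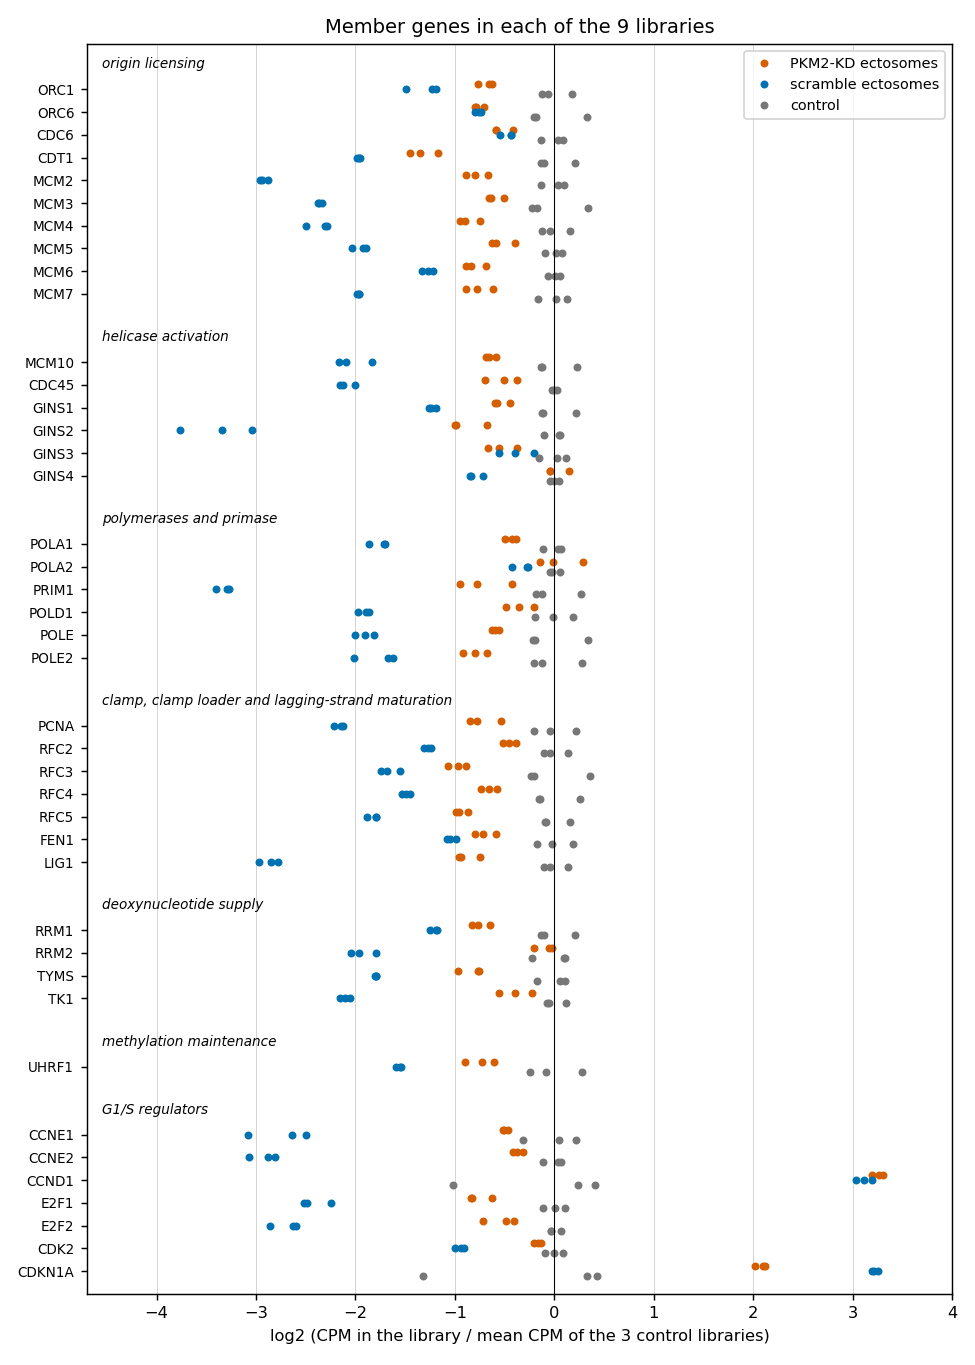
Level of each member in each library, as the log2 ratio of its CPM to the mean of the 3 control libraries, with 1 point a library and members grouped by role. Scramble-ectosome points lie farthest left for most members, PKM2-KD points between them and control, and CDKN1A and CCND1 lie to the right of control with both ectosomes.

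**Figure D2:**
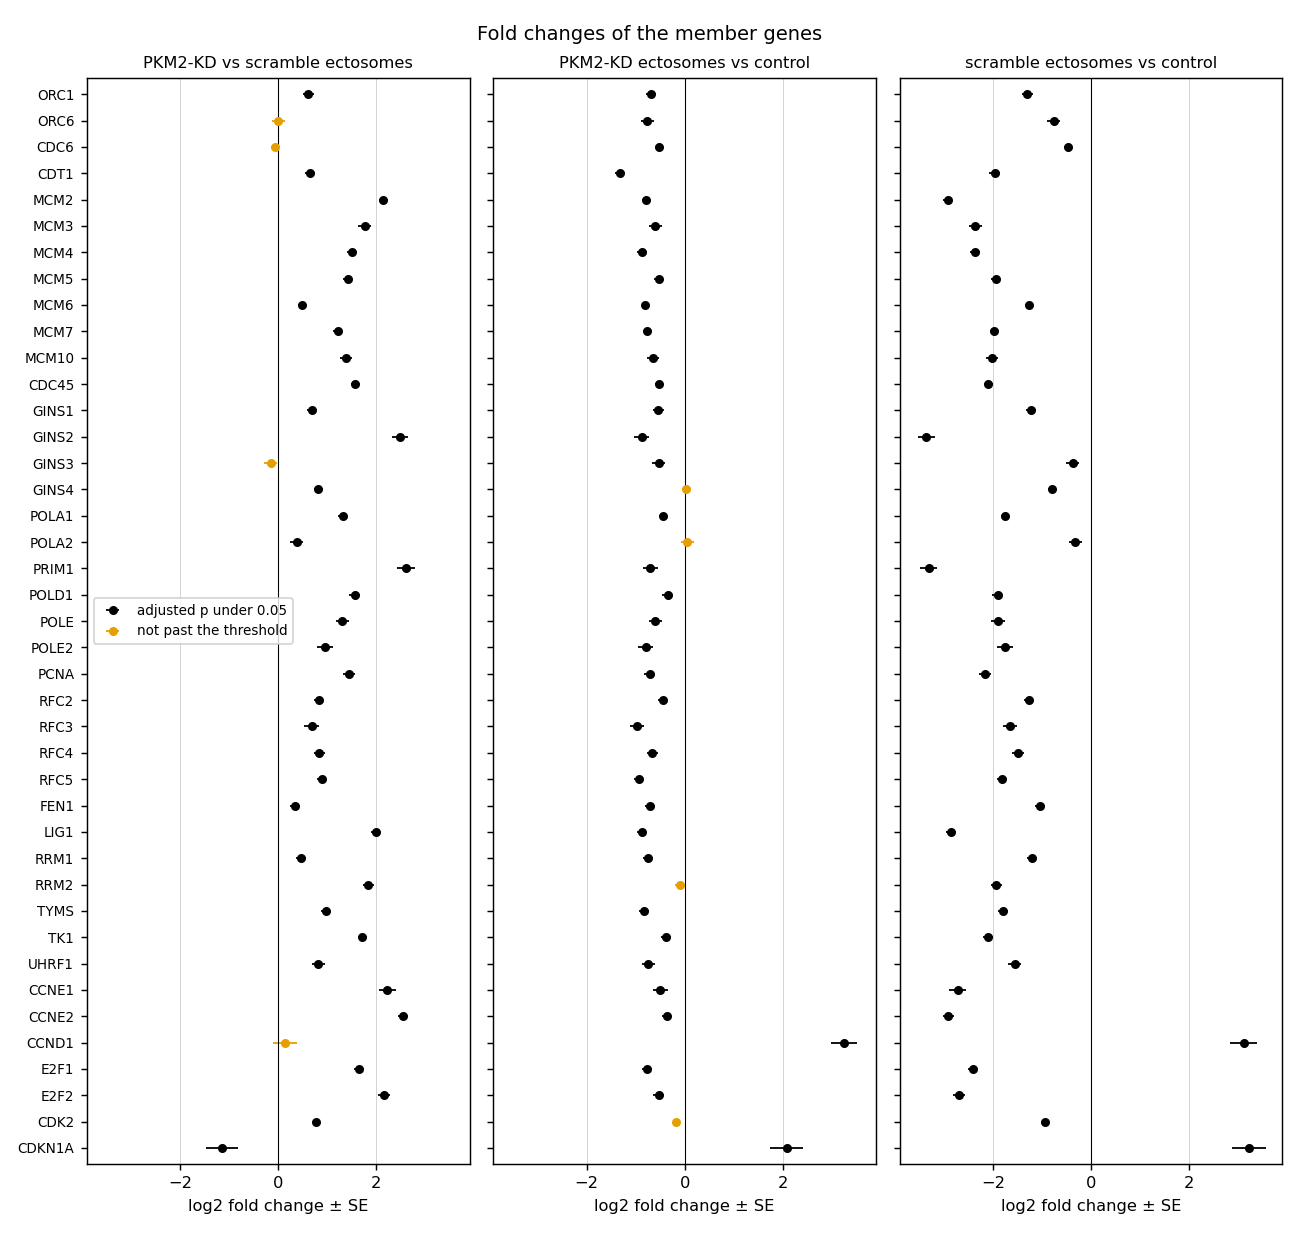
Log2 fold change ± SE of each member in the 3 comparisons from the fit across all 9 libraries, with members past an adjusted p of 0.05 in black and the others in orange. With PKM2-KD ectosomes against control the members run from -1.32 to 3.25 (median -0.64), or to 0.05 without CDKN1A and CCND1, and with scramble ectosomes against control from -3.36 to 3.22 (median -1.82), or to -0.32 without that pair.

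Origin licensing genes fell with both ectosomes. All 10 were lower than control with each kind of ectosome, with median log2 fold changes of -0.76 for PKM2-KD and -1.96 for scramble ectosomes. Against scramble ectosomes, 8 of the 10 were higher with PKM2-KD ectosomes. MCM2 (chromosome 3, 127598223 to 127622436, plus strand, GRCh38 for this and all later coordinates), a helicase subunit, had 134, 143 and 156 CPM with PKM2-KD ectosomes, 33.8, 32.3 and 32.0 CPM with scramble ectosomes and 254, 226 and 265 CPM in control cells. The groups did not overlap. It was 4.41-fold higher with PKM2-KD than scramble ectosomes (log2 2.14, SE 0.09, adjusted p = 3.9e-08) and 7.59-fold lower with scramble ectosomes than in control cells (log2 -2.92, SE 0.09, adjusted p = 2.35e-09). With PKM2-KD ectosomes it was 1.72-fold lower than in control cells (adjusted p = 2.87e-05).

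The other helicase subunits kept the same order over a range of sizes. MCM3, MCM4, MCM5, MCM6 and MCM7 were 5.13-, 5.13-, 3.86-, 2.42- and 3.92-fold lower with scramble ectosomes than in control cells, and 1.39-fold (MCM6) to 3.39-fold (MCM3) higher with PKM2-KD than scramble ectosomes. MCM6 had 154, 149 and 171 CPM with PKM2-KD ectosomes, 109.6, 118 and 114 CPM with scramble ectosomes and 276, 264 and 286 CPM in control cells. Its groups did not overlap either, though its scramble level was nearer to the PKM2-KD level than for any other MCM2-7 gene. MCM3 was high in control replicate 3 (708 CPM, against 496 and 480.4 CPM in the other controls), but no ectosome library reached a control. MCM7 hosts the microRNA genes MIR106B, MIR93 and MIR25 on its own strand and overlaps AP4M1 on the other, so some of its counts may belong to those.

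Among the loading factors, ORC1, the largest origin recognition subunit, was 1.53-fold higher with PKM2-KD than scramble ectosomes (log2 0.62, SE 0.11, adjusted p = 0.00049). CDT1, which brings the helicase to the origin, had 78.8, 84.4 and 95.7 CPM with PKM2-KD ectosomes, 55.7, 55.4 and 54.5 CPM with scramble ectosomes and 249, 201 and 197 CPM in control cells. The PKM2-KD libraries lay nearer to scramble than to control, with CDT1 2.50-fold lower with PKM2-KD ectosomes than in control cells (log2 -1.32, SE 0.11, adjusted p = 3.16e-06). ORC6 and CDC6 were lower than control with both ectosomes and gave no call between the ectosomes. CDC6, the loading ATPase, had 61.1, 60.7 and 68.5 CPM with PKM2-KD ectosomes, 67.7, 62.6 and 67.8 CPM with scramble ectosomes and 97.2, 93.8 and 83.5 CPM in control cells. The ectosome groups overlapped, with a log2 difference of -0.06 (SE 0.08). For ORC6, a small origin recognition subunit, means were 34.7 ± 1.23 CPM with PKM2-KD ectosomes, 34.7 ± 0.649 CPM with scramble ectosomes and 58.9 ± 13.0 CPM in control cells, a log2 difference of 0.00 (SE 0.13) between the ectosomes.

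Genes that turn the loaded helicase on were lower with scramble ectosomes in 6 of 6 cases, and 5 of 6 were higher with PKM2-KD than scramble ectosomes. GINS2 (chromosome 16, 85676198 to 85690073, minus strand), a subunit of the 4-protein GINS complex, showed the widest fall of any member. Its levels were 21.2, 21.4 and 26.5 CPM with PKM2-KD ectosomes, 3.11, 5.16 and 4.17 CPM with scramble ectosomes and 43.7, 39.4 and 43.9 CPM in control cells. The 3 groups lay apart. GINS2 was 10.2-fold lower with scramble ectosomes than in control cells (log2 -3.36, SE 0.17, adjusted p = 3.98e-08) and 5.57-fold higher with PKM2-KD than scramble ectosomes (log2 2.48, SE 0.17, adjusted p = 7.06e-07). GSE1 overlaps it on the opposite strand, and its counts are uncertain to that extent. CDC45, the helicase cofactor, and MCM10, which helps the helicase open, were 4.27- and 4.08-fold lower with scramble ectosomes than in control cells and 2.97- and 2.61-fold higher with PKM2-KD than scramble ectosomes.

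The other GINS subunits showed smaller differences. GINS1 was 2.35-fold lower and GINS4 1.74-fold lower with scramble ectosomes than in control cells, with adjusted p of 2.02e-06 and 9.6e-06. GINS4 had 43.2 ± 3.29 CPM with PKM2-KD ectosomes, 24.5 ± 1.19 CPM with scramble ectosomes and 42.6 ± 1.36 CPM in control cells, and no call was made between PKM2-KD ectosomes and control (log2 0.02, SE 0.08). GINS3 stood at 9.77, 10.6 and 11.95 CPM with PKM2-KD ectosomes, 11.8, 10.6 and 13.5 CPM with scramble ectosomes and 15.9, 14.0 and 16.8 CPM in control cells. The ectosome groups overlapped (log2 -0.15, SE 0.13), and control libraries lay above both. Its fall with scramble ectosomes against control (log2 -0.37, SE 0.13, adjusted p = 0.0259) was not called without control replicate 1 (0.0561), scramble replicate 1 (0.0766) or scramble replicate 2 (0.11), with adjusted p from 0.00176 to 0.11 over the alternatives tried.

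Among polymerase and primase genes, 6 of 6 were lower with scramble ectosomes than in control cells, and 6 of 6 were higher with PKM2-KD than scramble ectosomes. PRIM1 (chromosome 12, 56731596 to 56752373, minus strand), the catalytic subunit of primase, had 18.01, 16.0 and 23.0 CPM with PKM2-KD ectosomes, 2.93, 3.21 and 3.16 CPM with scramble ectosomes and 27.3, 28.3 and 37.2 CPM in control cells. Scramble libraries were far below all others. PRIM1 was 6.11-fold higher with PKM2-KD than scramble ectosomes (log2 2.61, SE 0.18, adjusted p = 7.76e-07), the largest such rise among the 41 members, and 9.95-fold lower with scramble ectosomes than in control cells (log2 -3.32, SE 0.18, adjusted p = 6.86e-08). NACA overlaps PRIM1 on the same strand and HSD17B6 on the other, so shared reads are possible. POLA1, the catalytic subunit of polymerase alpha, was 3.38-fold lower with scramble ectosomes than in control cells, POLD1, that of polymerase delta, 3.75-fold, and POLE and POLE2, the catalytic and the accessory subunit of polymerase epsilon, 3.74- and 3.37-fold. POLD1 was 1.27-fold lower with PKM2-KD ectosomes than in control cells (adjusted p = 0.0182), a call lost without PKM2-KD replicate 1 (0.0797) or replicate 2 (0.064), with adjusted p from 0.00579 to 0.0797 over the alternatives.

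POLA2, the accessory subunit that ties primase to polymerase alpha, had the smallest fall of the 41 members with scramble ectosomes. It had 12.2, 11.2 and 15.1 CPM with PKM2-KD ectosomes, 9.16, 10.2 and 10.3 CPM with scramble ectosomes and 11.99, 12.1 and 12.9 CPM in control cells. PKM2-KD and control libraries overlapped, and the scramble libraries lay below both. Its rise with PKM2-KD over scramble ectosomes (log2 0.38, SE 0.13, adjusted p = 0.0266) was lost without PKM2-KD replicate 3 (0.114) and without scramble replicate 1 (0.103), 2 (0.0556) or 3 (0.0538), the range over all alternatives being 0.00334 to 0.114. Its fall with scramble ectosomes against control (log2 -0.32, SE 0.13, adjusted p = 0.047) ranged from 0.00359 to 0.161. That call was lost without PKM2-KD replicate 1 (0.0612) or 2 (0.0529), control replicate 1 (0.0641) or 2 (0.076), and scramble replicate 1 (0.161), 2 (0.085) or 3 (0.0816), and with DESeq2 (0.0522).

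Clamp, clamp loader and lagging-strand genes were lower than control in 7 of 7 cases with either kind of ectosome and higher with PKM2-KD than scramble ectosomes in 7 of 7. PCNA (chromosome 20, 5114953 to 5126626, minus strand), the sliding clamp, had 68.3, 72.02 and 84.6 CPM with PKM2-KD ectosomes, 27.8, 26.6 and 28.2 CPM with scramble ectosomes and 119.6, 107 and 143 CPM in control cells. The groups did not overlap. It was 2.73-fold higher with PKM2-KD than scramble ectosomes (log2 1.45, SE 0.12, adjusted p = 2.6e-06) and 4.47-fold lower with scramble ectosomes than in control cells (log2 -2.16, SE 0.12, adjusted p = 8.31e-08). LIG1, the ligase that seals Okazaki fragments, had 55.7, 54.9 and 63.5 CPM with PKM2-KD ectosomes, 15.5, 13.6 and 14.8 CPM with scramble ectosomes and 103.5, 99.5 and 117 CPM in control cells. Its fall with scramble ectosomes against control was 7.28-fold (adjusted p = 4.55e-09), and its difference between PKM2-KD and scramble ectosomes 3.96-fold (adjusted p = 9.53e-08).

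The clamp loader subunits RFC2, RFC3, RFC4 and RFC5 were 2.42-, 3.15-, 2.82- and 3.53-fold lower with scramble ectosomes than in control cells. They were 1.77-, 1.60-, 1.79- and 1.85-fold higher with PKM2-KD than scramble ectosomes. FEN1, the nuclease that trims Okazaki fragment flaps, had 81.7, 86.4 and 95.1 CPM with PKM2-KD ectosomes, 68.9, 67.2 and 71.98 CPM with scramble ectosomes and 139.8, 126 and 162 CPM in control cells. The ectosome groups were close but did not overlap. Its rise with PKM2-KD over scramble ectosomes, 1.26-fold (log2 0.34, SE 0.10, adjusted p = 0.0125), was lost without PKM2-KD replicate 3 (0.0515) or scramble replicate 2 (0.0501), with adjusted p from 4.59e-05 to 0.0515 over the alternatives. FEN1 overlaps FADS2 on its own strand and TMEM258 on the other. PCNA, RFC3, RFC5, FEN1, RRM2 and TYMS have 11 pseudogenes named after them in GENCODE 29, of which 1, RRM2P2 with 7 counts over all libraries, was in the table, so reads of near-identical copies may be shared.

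Of the 4 genes of deoxynucleotide supply, 4 were lower with scramble ectosomes than in control cells and 4 higher with PKM2-KD than scramble ectosomes. RRM2 (chromosome 2, 10120698 to 10131419, plus strand), the S-phase subunit of ribonucleotide reductase, had 78.9, 70.6 and 80.3 CPM with PKM2-KD ectosomes, 19.7, 21.0 and 23.5 CPM with scramble ectosomes and 87.1, 88.2 and 69.6 CPM in control cells. PKM2-KD libraries overlapped control, and scramble libraries lay below both. RRM2 was 3.58-fold higher with PKM2-KD than scramble ectosomes (log2 1.84, SE 0.11, adjusted p = 3.6e-07) and 3.82-fold lower with scramble ectosomes than in control cells (adjusted p = 1.12e-07). Between PKM2-KD ectosomes and control it was not called (log2 -0.09, SE 0.11, adjusted p = 0.497), but it was lower without control replicate 3 (log2 -0.20, adjusted p = 0.0274), the range over the alternatives being 0.0274 to 0.902. RRM1, the large subunit of the same enzyme, was 1.37-fold higher with PKM2-KD than scramble ectosomes (adjusted p = 0.00227) and 2.30-fold lower with scramble ectosomes than in control cells.

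TYMS, thymidylate synthase, had 34.3 ± 2.71 CPM with PKM2-KD ectosomes, 17.6 ± 0.103 CPM with scramble ectosomes and 60.9 ± 6.25 CPM in control cells. TK1, the S-phase thymidine kinase, had 134 ± 15.7 CPM, 40.8 ± 1.42 CPM and 175 ± 13.2 CPM in PKM2-KD, scramble and control libraries. TK1 lay closer to control with PKM2-KD ectosomes (1.31-fold lower, adjusted p = 0.00592) than TYMS did (1.77-fold lower, adjusted p = 4.05e-05), though the difference between the 2 genes was not tested. ENOSF1 and TYMSOS overlap TYMS on the opposite strand. UHRF1, which carries DNA methylation through replication by reading half-methylated sites, stood at 129, 145 and 158 CPM with PKM2-KD ectosomes, 80.2, 83.0 and 82.5 CPM with scramble ectosomes and 228, 203 and 293 CPM in control cells. Its groups did not overlap, and it was 1.76-fold higher with PKM2-KD than scramble ectosomes (log2 0.82, SE 0.13, adjusted p = 0.000261) and 2.95-fold lower with scramble ectosomes than in control cells.

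The G1/S regulators held the members that ran against the rest. CDKN1A (chromosome 6, 36676460 to 36687339, plus strand) encodes p21, an inhibitor of cyclin-dependent kinases that also binds PCNA. It had 542, 572 and 581 CPM with PKM2-KD ectosomes, 1223, 1240 and 1273 CPM with scramble ectosomes and 180.1, 167 and 53.6 CPM in control cells. It was highest where the replication genes were lowest, no groups overlapped, and control replicate 3 was low. CDKN1A was 9.31-fold higher with scramble ectosomes than in control cells (log2 3.22, SE 0.35, adjusted p = 1.31e-05) and 4.23-fold higher with PKM2-KD ectosomes than in control cells (log2 2.08, SE 0.34, adjusted p = 0.000413). Without control replicate 3 those folds were 7.16 and 3.25. It was 2.21-fold lower with PKM2-KD than scramble ectosomes (log2 -1.14, SE 0.33, adjusted p = 0.0108), and adjusted p ran from 3.26e-13 to 0.0401 over the alternatives. The annotated RNA gene DINOL overlaps it on the opposite strand.

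CCND1 (chromosome 11, 69641087 to 69654474, plus strand), cyclin D1, rose with both ectosomes. It had 170.2, 166 and 158 CPM with PKM2-KD ectosomes, 141, 158 and 149 CPM with scramble ectosomes and 22.9, 20.3 and 8.501 CPM in control cells. Every ectosome library lay above every control library. The rise over control was 9.52-fold with PKM2-KD ectosomes (log2 3.25, SE 0.27, adjusted p = 3.95e-06) and 8.62-fold with scramble ectosomes (log2 3.11, SE 0.27, adjusted p = 2.17e-06), or 7.63- and 6.91-fold without control replicate 3. Between the ectosomes it was not called (log2 0.14, SE 0.24, adjusted p = 0.628), but it was higher with PKM2-KD ectosomes without control replicate 3 (adjusted p = 0.0377) and in a fit of those 2 groups alone (0.0148), with adjusted p from 0.0148 to 0.8 over the alternatives.

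The cyclin E genes, E2F1 and E2F2 followed the replication genes. CCNE1, cyclin E1, had 24.2, 23.4 and 23.4 CPM with PKM2-KD ectosomes, 5.37, 5.90 and 3.93 CPM with scramble ectosomes and 38.9, 34.3 and 26.8 CPM in control cells. CCNE2, cyclin E2, had 30.3, 28.5 and 29.2 CPM with PKM2-KD ectosomes, 5.42, 5.16 and 4.51 CPM with scramble ectosomes and 38.9, 39.7 and 34.9 CPM in control cells. For both cyclins the 3 groups lay apart, with scramble libraries lowest. CCNE1 and CCNE2 were 4.68- and 5.83-fold higher with PKM2-KD than scramble ectosomes (adjusted p = 1.61e-06 and 3.7e-08) and 6.59- and 7.52-fold lower with scramble ectosomes than in control cells (adjusted p = 1.93e-07 and 5.35e-09). The fall of CCNE1 with PKM2-KD ectosomes against control, 1.41-fold (adjusted p = 0.0185), was lost without PKM2-KD replicate 2 (0.0669) or 3 (0.0573) or control replicate 1 (0.0655), and ran from 3.2e-05 to 0.0669 over the alternatives.

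E2F1 had 62.1, 61.7 and 71.4 CPM with PKM2-KD ectosomes, 19.3, 19.7 and 23.2 CPM with scramble ectosomes and 119, 102 and 111 CPM in control cells. E2F2 had 21.6, 25.3 and 26.7 CPM with PKM2-KD ectosomes, 5.73, 5.85 and 4.89 CPM with scramble ectosomes and 37.0, 34.6 and 34.6 CPM in control cells. Neither gene had overlapping groups. E2F1 was 3.14-fold and E2F2 4.47-fold higher with PKM2-KD than scramble ectosomes (adjusted p = 4.13e-07 and 1.73e-07), and with scramble ectosomes they were 5.33- and 6.45-fold lower than in control cells (adjusted p = 1.51e-08 and 1.71e-08). CDK2, the kinase partner of cyclin E, had 65.7 ± 1.67 CPM with PKM2-KD ectosomes, 38.3 ± 1.12 CPM with scramble ectosomes and 73.9 ± 4.78 CPM in control cells. It was 1.72-fold higher with PKM2-KD than scramble ectosomes (adjusted p = 7.03e-06). Between PKM2-KD ectosomes and control it was not called (log2 -0.17, SE 0.07, adjusted p = 0.073), although its groups did not overlap. It was called lower with library totals alone (0.0365) and with control replicate 1 left out (0.0373), adjusted p reaching 0.247 at most.

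**Figure D3:**
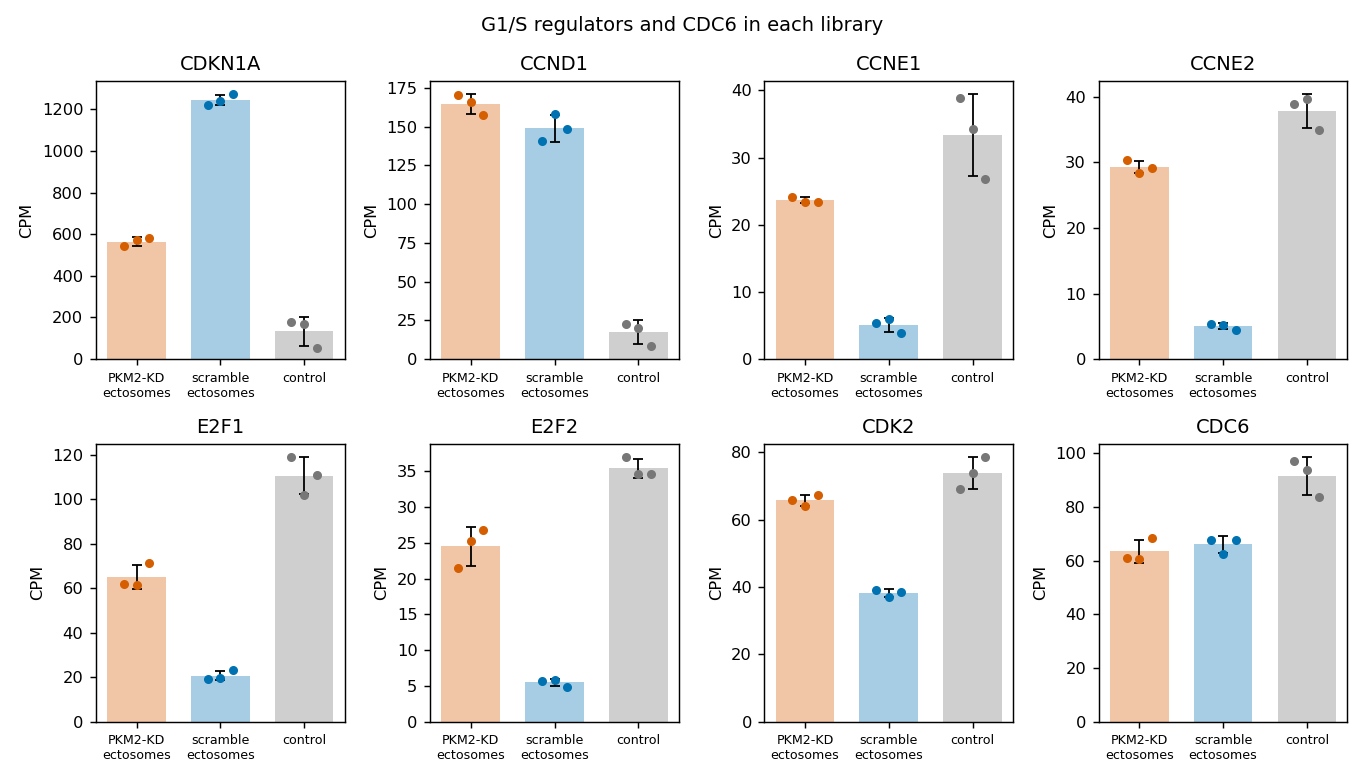
TMM-scaled CPM of the G1/S regulators and of CDC6 in each library (points), with the group mean (bar, from 0) and SD (whisker, n = 3 libraries). CDKN1A is highest with scramble ectosomes (1223 to 1273 CPM), and CCND1 is high with both ectosomes. CCNE1, CCNE2, E2F1 and E2F2 are lowest with scramble ectosomes.

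The ratio of reads between members of one complex or enzyme needs no scaling between libraries. The 4 pairs given here were chosen after the values were seen, and their ratios are a description with no test. Reads of MCM2 per read of MCM6 were 0.867, 0.959 and 0.909 with PKM2-KD ectosomes, 0.308, 0.274 and 0.281 with scramble ectosomes and 0.921, 0.855 and 0.926 in control cells. The PKM2-KD and control libraries overlapped in this ratio, and the scramble libraries lay well below. Reads of GINS2 per read of GINS3 were 2.17, 2.02 and 2.21 with PKM2-KD ectosomes, 0.263, 0.488 and 0.309 with scramble ectosomes and 2.76, 2.82 and 2.61 in control cells. Reads of PRIM1 per read of POLA2 were 1.48, 1.43 and 1.52 with PKM2-KD ectosomes, 0.320, 0.316 and 0.308 with scramble ectosomes and 2.28, 2.33 and 2.89 in control cells. In these pairs the groups lay apart in the order seen for the summed genes. Reads of RRM2 per read of RRM1 were 0.728, 0.675 and 0.677 with PKM2-KD ectosomes, 0.253, 0.256 and 0.289 with scramble ectosomes and 0.505, 0.522 and 0.325 in control cells, so this ratio was highest with PKM2-KD ectosomes.

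Levels were compared between genes as CPM per kb of exon, the length being all annotated exons of a gene merged. That length can exceed the transcript made, and ranks between genes depend on it: 7338 bases for MCM5 and 3650 for MCM3. In CPM without length, MCM5 in control cells (278.3 CPM) lay above MCM6 (275.3 CPM) and MCM2 (248.2 CPM). MCM2, GINS2 and PRIM1 were the lowest of their complexes with scramble ectosomes in CPM as well. Among MCM2-7 genes, MCM3 was highest in every group, at 101.6, 29.97 and 153.9 CPM per kb with PKM2-KD ectosomes, scramble ectosomes and in control cells. The lowest was MCM5 with PKM2-KD ectosomes (26.2 CPM per kb) and in control cells (37.9 CPM per kb), but MCM2 with scramble ectosomes (6.67 CPM per kb). Among GINS genes GINS2 was the lowest with scramble ectosomes (1.27 CPM per kb) and the highest in control cells (12.97 CPM per kb). In the polymerase alpha-primase members, PRIM1 was the highest with PKM2-KD ectosomes (7.79 CPM per kb) and in control cells (12.7 CPM per kb) and the lowest with scramble ectosomes (1.27 CPM per kb). These orders are of means, with the spread between libraries shown by the points of the plot of complexes.

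**Figure D4:**
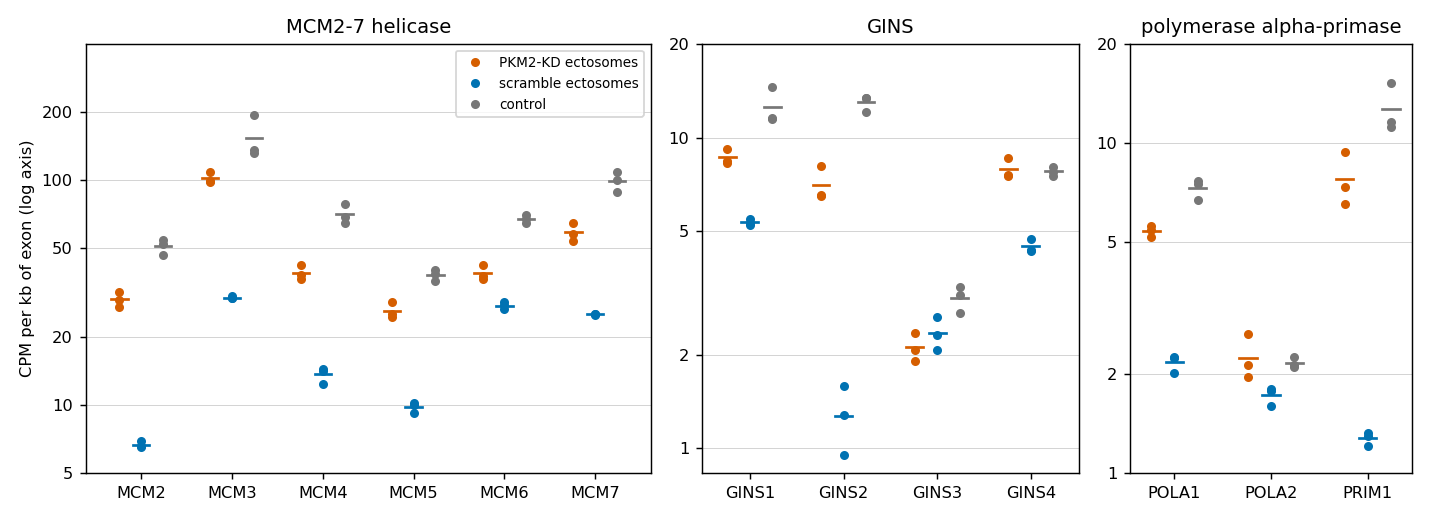
CPM per kb of merged annotated exon (log axis) of the subunits of the MCM2-7 helicase, GINS and polymerase alpha-primase. Each library is 1 point, with a line at the mean of 3 libraries, and ranks between genes depend on the exon length used. With scramble ectosomes MCM2, GINS2 and PRIM1 fall to the bottom of their complexes, at 6.67, 1.27 and 1.27 CPM per kb.

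Beyond the members, lists of related genes were counted by the same test. Each count is to be read against all rows tested, of which 31.4% were higher and 30.3% lower with PKM2-KD than scramble ectosomes, 27.0% and 26.7% with PKM2-KD ectosomes than in control cells, and 34.6% and 33.2% with scramble ectosomes than in control cells. Of 30 other replication factors, 20 were higher and 6 lower with PKM2-KD than scramble ectosomes, 1 higher and 24 lower with PKM2-KD ectosomes than in control cells, and 1 higher and 22 lower with scramble ectosomes than in control cells. Their median log2 fold changes were 0.48, -0.54 and -0.96. The 1 higher in the last comparison became 3 without control replicate 3. RPA3, a subunit of the single-strand binding protein, had 44.5 ± 1.57 CPM with PKM2-KD ectosomes, 11.9 ± 0.244 CPM with scramble ectosomes and 60.3 ± 1.76 CPM in control cells. DTL, which marks CDT1 for destruction, was 4.16-fold lower with scramble ectosomes than in control cells (adjusted p = 3.17e-08). DBF4, the activator of the CDC7 kinase that fires origins, ran the other way, with 25.04 ± 2.42 CPM with PKM2-KD ectosomes, 53.8 ± 1.91 CPM with scramble ectosomes and 28.0 ± 1.67 CPM in control cells. It was 2.15-fold lower with PKM2-KD than scramble ectosomes (adjusted p = 2.68e-06). POLD4, a small subunit of polymerase delta, was higher with PKM2-KD ectosomes than in either other group, at 40.7 ± 3.76 CPM, against 11.7 ± 1.41 CPM with scramble ectosomes and 11.5 ± 1.45 CPM in control cells.

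Of 10 genes of replication-coupled chromatin assembly, 7 were higher and 1 lower with PKM2-KD than scramble ectosomes, 0 higher and 8 lower with PKM2-KD ectosomes than in control cells, and 1 higher and 8 lower with scramble ectosomes than in control cells. The 1 lower became 2 without control replicate 3. CDCA7, which works with the chromatin remodeller HELLS, had 35.4 ± 1.10 CPM with PKM2-KD ectosomes, 6.24 ± 0.636 CPM with scramble ectosomes and 150.1 ± 67.5 CPM in control cells, control replicate 3 standing at 228 CPM. HELLS itself was 4.24-fold higher with PKM2-KD than scramble ectosomes (adjusted p = 9.1e-08) and 4.81-fold lower with scramble ectosomes than in control cells (adjusted p = 2.01e-08). ASF1A, a histone chaperone, was the 1 that rose with scramble ectosomes, 1.61-fold over control (adjusted p = 2.36e-05).

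Other G1/S cyclins, kinases and inhibitors were called in both directions. Of 14 listed, 12 were tested, and with PKM2-KD against scramble ectosomes 4 were higher and 6 lower, the higher share being near the 31.4% of all rows. The 4 became 2 without PKM2-KD replicate 3, scramble replicate 1 or scramble replicate 3, and the 6 became 3 with library totals alone. With PKM2-KD ectosomes 1 was higher and 8 lower than in control cells, and with scramble ectosomes 1 higher and 5 lower, against 34.6% and 33.2% of all rows. Those single higher counts became 2 without control replicate 1, and the one with scramble ectosomes also without control replicate 3, while the 5 became 9 with library totals alone. SKP2, which targets the inhibitor p27 for destruction, was 3.79-fold higher with PKM2-KD than scramble ectosomes (adjusted p = 1.19e-06) and 6.16-fold lower with scramble ectosomes than in control cells (adjusted p = 7.06e-08). CCND3, cyclin D3, had 397.5 ± 49.0 CPM with PKM2-KD ectosomes, 180.5 ± 9.999 CPM with scramble ectosomes and 261 ± 54.3 CPM in control cells. CDKN2C, the CDK4 and CDK6 inhibitor p18, was 3.24-fold lower with PKM2-KD ectosomes and 2.57-fold lower with scramble ectosomes than in control cells. CCNA2 and CDK1 were among the 6 lower between the ectosomes, by 1.54- and 1.49-fold. The 1 higher with scramble ectosomes than in control cells was CCND2, near the floor at 21, 16 and 12 raw counts with scramble ectosomes.

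Among 12 other RB and E2F family genes, 4 were higher and 4 lower with PKM2-KD than scramble ectosomes, 1 higher and 5 lower with PKM2-KD ectosomes than in control cells, and 5 higher and 5 lower with scramble ectosomes than in control cells. The counts between the ectosomes were near the shares over all rows, 31.4% and 30.3%, so as a list these genes did not stand out there. The 1 became 2 without control replicate 3, and the 5 lower with PKM2-KD ectosomes became 8 with library totals alone. E2F8, an atypical repressor E2F, had 24.4 ± 1.36 CPM with PKM2-KD ectosomes, 6.11 ± 0.765 CPM with scramble ectosomes and 43.4 ± 8.25 CPM in control cells, the order of E2F1 and E2F2. Its close relative E2F7 had 24.8 ± 1.83 CPM with PKM2-KD ectosomes, 62.8 ± 1.88 CPM with scramble ectosomes and 36.8 ± 2.81 CPM in control cells. E2F7 was thus 1.71-fold higher with scramble ectosomes than in control cells (adjusted p = 1.48e-05), and E2F8 7.09-fold lower (adjusted p = 6.36e-08). E2F3 was 1.43-fold higher with scramble ectosomes than in control cells (adjusted p = 5.92e-05). It was 1.615-fold lower with PKM2-KD than scramble ectosomes (adjusted p = 1.01e-05), so both differences ran opposite to those of E2F1 and E2F2.

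Mitosis genes showed no fall with scramble ectosomes. Of 16, 9 were higher and 0 lower with scramble ectosomes than in control cells, with a median log2 fold change of 0.42, or 0.22 and 7 higher with library totals alone. Without control replicate 3, 13 were higher and 0 lower. With PKM2-KD ectosomes all 16 listed were lower than with scramble ectosomes (median -0.94; 15 with library totals alone), and all 16 were lower than in control cells (median -0.66). CDC20, an activator of the anaphase-promoting complex, had 132, 145 and 152 CPM with PKM2-KD ectosomes, 689, 700.2 and 742 CPM with scramble ectosomes and 247, 231 and 279 CPM in control cells. The groups lay apart, with scramble libraries highest. CDC20 was 4.96-fold lower with PKM2-KD than scramble ectosomes (log2 -2.31, SE 0.10, adjusted p = 3.57e-08) and 2.82-fold higher with scramble ectosomes than in control cells (log2 1.49, SE 0.09, adjusted p = 1.73e-07). The mitotic kinase genes PLK1 and AURKA were 3.28- and 3.63-fold lower with PKM2-KD than scramble ectosomes and 2.11- and 2.72-fold higher with scramble ectosomes than in control cells. The E2F motif described above stood in the window of 1 of 13 of these genes with a window, or 7.69%.

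As CDKN1A is a p53 target, 18 such genes were counted beside it. With scramble ectosomes 10 were higher and 4 lower than in control cells, with PKM2-KD ectosomes 6 were higher and 4 lower, and between PKM2-KD and scramble ectosomes 4 were higher and 9 lower. Over all rows the shares were 34.6% and 33.2%, 27.0% and 26.7%, and 31.4% and 30.3% in those comparisons, so the counts with PKM2-KD ectosomes against control were close to those of all rows. The 4 lower with PKM2-KD ectosomes than in control cells became 7 without control replicate 3. The 9 lower between the ectosomes became 13 without that library and ran from 7 to 13 over the fits that each leave out 1 library. GDF15, a stress-induced secreted factor, had 10.7 ± 0.529 CPM with PKM2-KD ectosomes, 319.9 ± 23.3 CPM with scramble ectosomes and 2.02 ± 1.52 CPM in control cells. GADD45A, a growth arrest gene, was 5.42-fold lower with PKM2-KD than scramble ectosomes (adjusted p = 3.71e-08) and 3.52-fold higher with scramble ectosomes than in control cells (adjusted p = 6.82e-08). BTG2, an antiproliferative gene, rose with both, with 675 ± 45.0 CPM with PKM2-KD ectosomes, 610.5 ± 20.7 CPM with scramble ectosomes and 63.6 ± 36.6 CPM in control cells. DDB2, a DNA damage sensor, and FDXR, a mitochondrial reductase, ran the other way: with scramble ectosomes they were 1.90- and 6.95-fold lower than in control cells (adjusted p = 2.36e-06 and 8.21e-08).

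**Figure D5:**
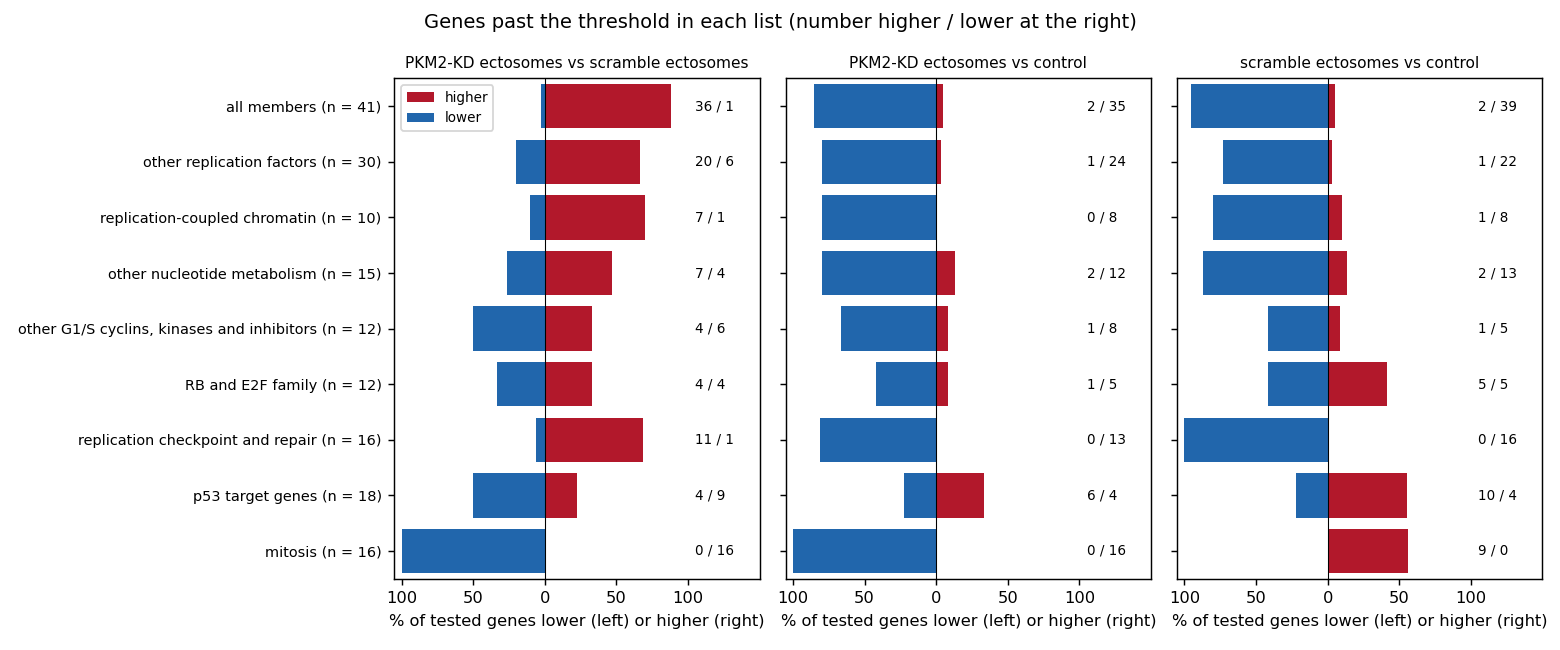
Share of the tested genes of each list, and of the 41 members, that were higher (right of 0) or lower (left of 0) at an adjusted p under 0.05 in the 3 comparisons, with the numbers higher and lower at the right. Members fall with scramble ectosomes against control (2 higher, 39 lower), while mitosis genes do not (9 higher, 0 lower).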

How the data were processed

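The deposited file holds whole-number read counts for 9 libraries with gene symbols as row names, not normalized by the authors. Per the labels' protocols, Trizol RNA (3 µg) went into NEBNext Ultra libraries for an Illumina HiSeq. The submitters' processing notes name HISAT2 2.0.5, featureCounts 1.5.0-p3 and GRCh38/hg38. Annotation release, use of strand and filtering: not given in the sources used here. Of the members, 19 overlap an annotated gene on the opposite strand and 10 one on the same strand, and such reads cannot be told apart.

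The counts were tested with edgeR 4.0.16 (R 4.3.3, limma 3.58.1). The code was also run on counts simulated from the fitted spread with few rows changed. That run cannot check scaling or error rates where as many rows change as here. With filterByExpr by group, 18437 rows were left, with at least 99.85% of each library's counts. After TMM scaling, 1 quasi-likelihood fit took all 9 libraries with group as the only term (6 residual degrees of freedom, common biological coefficient of variation 13.31%). Tests were two-sided, and every adjusted p is Benjamini-Hochberg over all rows tested unless another tool is named. SEs were derived from the fitted log2 fold change and its F statistic, as the size of the fold change over the root of F. GENCODE 29 gave coordinates and exon lengths, and RefSeq gave promoters. Alternatives were DESeq2 1.42.0, other scalings, no filter, 2-group fits, a replicate block and leaving out each library. All members are named. From each list, up to 2 genes a direction and comparison with the smallest p could be named, and the text gives some of these, chosen after their values were seen. Members and lists were chosen with earlier results of these data known.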

Additional observations from a re-analysis of the deposited data

How the results depend on the processing

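No called member changed direction under any alternative tried, and the counts of called members stayed within 1.5 times. Over the fits that each leave out 1 library, members higher and lower ran from 34 to 37 and stayed at 1 for PKM2-KD against scramble ectosomes, stayed at 2 and ran from 33 to 36 for PKM2-KD ectosomes against control, and stayed at 2 and ran from 37 to 39 for scramble ectosomes against control. The single-gene calls that changed are given with POLA2, FEN1, POLD1, CCNE1, GINS3, RRM2, CDK2 and CCND1. DESeq2 called 38 members lower with scramble ectosomes than in control cells. Replicate numbers did not pair the samples (same-number correlations of -0.094 to 0.0669), and with the number as a replicate block the counts were 36 and 1, 2 and 35, and 2 and 39. A wholesale shift of all transcripts per cell cannot be seen in counts scaled to a library's own total.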

Other observations

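Nucleotide synthesis and checkpoint genes outside the member list were also counted, to be read against the shares of all rows tested. Of those rows, 31.4% were higher and 30.3% lower with PKM2-KD than scramble ectosomes. Against control cells the shares were 27.0% and 26.7% with PKM2-KD ectosomes and 34.6% and 33.2% with scramble ectosomes. Of 15 other genes of nucleotide metabolism, 7 were higher and 4 lower with PKM2-KD than scramble ectosomes, the lower share being near that of all rows. With library totals alone 2 were lower, and over all rows 4331 in place of 5583 were. Against control cells, 2 were higher and 12 lower with PKM2-KD ectosomes, and 2 higher and 13 lower with scramble ectosomes. DUT, the dUTPase, was 3.30-fold higher with PKM2-KD than scramble ectosomes (edgeR quasi-likelihood test, adjusted p = 1.59e-07) and 5.48-fold lower with scramble ectosomes than in control cells (adjusted p = 7.52e-09). SAMHD1, which breaks down deoxynucleotides, stood at 229 ± 9.12 CPM with PKM2-KD ectosomes, 133 ± 5.74 CPM with scramble ectosomes and 498 ± 56.8 CPM in control cells. RRM2B, the p53-linked relative of RRM2, and DCTD, deoxycytidylate deaminase, were the 2 that were higher than control with both ectosomes, by 1.70- and 2.13-fold with scramble ectosomes.

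Of 16 replication checkpoint and repair genes, 11 were higher and 1 lower with PKM2-KD than scramble ectosomes, 0 higher and 13 lower with PKM2-KD ectosomes than in control cells, and 0 higher and 16 lower with scramble ectosomes than in control cells. The 1 lower between the ectosomes was CHEK1, a checkpoint kinase, whose call was lost with library totals alone and without PKM2-KD replicate 2. EXO1, a repair exonuclease, had 38.3 ± 1.22 CPM with PKM2-KD ectosomes, 10.2 ± 0.947 CPM with scramble ectosomes and 50.8 ± 6.69 CPM in control cells. BLM, the Bloom syndrome helicase, was 2.48-fold lower with PKM2-KD ectosomes (adjusted p = 1.24e-05) and 4.36-fold lower with scramble ectosomes (adjusted p = 1.82e-07) than in control cells.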
